A study of Mus musculus with 2 samples.

Results

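The genes described here have very long merged exons. They are the autosomal protein-coding genes of GENCODE M1 (mouse, mm9) whose exons, merged over all annotated transcripts, span at least 13000 nt, without the basement membrane, lipid uptake and lipoprotein genes *Hspg2*, *Lrp2* and *Apob* and without genes whose names start with Col. The rule took 271 of 21418 autosomal protein-coding genes, and 5 more genes of that length were left out by name (*Apob*, *Col12a1*, *Col27a1*, *Hspg2* and *Lrp2*). The merged exons ran from 13006 to 116828 nt, with a median of 15347 nt against 2744 nt for all autosomal protein-coding genes. In 90 of the genes a single annotated coding transcript reached 13000 nt, and the other 181 reached it only when the exons of their transcripts were merged. For those 181 the length is that of the merged exons and not of a single annotated coding transcript. The genes are called members below.

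Nonpolyadenylated (NPA) RNA was sequenced with strand information in 1 library of R1 mouse embryonic stem cells (ESCs) and 1 library of neural progenitor cells (NPCs) derived from them. The ESCs are a male line and were grown with LIF on a layer of mouse embryonic fibroblasts treated with mitomycin C. The NPCs were taken on day 7 of differentiation, after 4 days as embryoid bodies without LIF and growth on poly-L-ornithine and fibronectin in medium with insulin, transferrin and selenium. In both, polyadenylated RNA had been depleted in 3 rounds of capture and ribosomal RNA in 1. The paper describes such fractions as enriched and not exclusive, so some reads may come from polyadenylated RNA. Their part in the profiles was not tested, and the polyadenylated pool was not measured here.

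A very long mRNA takes the polymerase a long time to transcribe and the ribosome a long time to read, and it offers many places for breakage. A broken mRNA leaves a 5′ piece that has a cap and no tail and a 3′ piece that keeps the tail. Long genes often have alternative starts and ends. The proteins include cytoskeletal linkers, dyneins, giant ubiquitin ligases, chromatin regulators and large receptors.

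The comparison asked where along the merged exons the reads of the NPA libraries lie and whether that place, or the level, differed between the libraries. The merged exons of each gene were divided into 10 equal bins, numbered from the 5′ end, and bins 1 to 5 are called the 5′ side and bins 6 to 10 the 3′ side. The libraries held 4271306 reads in ESCs and 4399729 in NPCs, and 1 read was worth 0.234 RPM (reads scaled to the library total) in ESCs and 0.227 RPM in NPCs. Each cell type had a single library, so nothing was tested between them. Intervals of shares and level ratios are exact 95% intervals, those of a change in the 5′ to 3′ ratio are approximate (from log odds), and those of medians are taken over genes. The first 2 kinds cover counting error only and compare the libraries, not the cell types, and PCR copies of a molecule are counted as separate reads. In bulk RNA, fewer cells of a type and less RNA per cell cannot be told apart.

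The libraries were checked against marker lists. All 9 pluripotency genes were lower in NPCs, with a summed level of 2205 RPM in ESCs and 647 RPM in NPCs, and *Pou5f1* and *Nanog* still had 724 and 601 reads on day 7. The 10 neural progenitor genes found summed to 88.03 RPM and 95.01 RPM, 8 of them were higher in NPCs, and 4 of them had 0 reads in ESCs. The 13 genes of extraembryonic endoderm were all higher in NPCs and summed to 1112 RPM in ESCs and 18618 RPM in NPCs, far above the neural sum in the library labelled NPC. The 10 fibroblast genes, which mark the feeder layer, summed to 84.8 RPM in ESCs and 72.3 RPM in NPCs, although 6 of them were higher in NPCs and 3 lower, among these *Fbln2* (38.4 and 9.32 RPM) and *Thy1* (18.5 and 2.73 RPM). The part of these other cells in the results below was not tested.

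The stacks of reads that start at a single base show what the data look like along the merged exons. Of all members, 5 had a start position with at least 100 reads in both libraries together, and the sequences there are shown because they are the single places with the greatest weight in the profiles. Each line gives the strand of the mRNA, 5′ to 3′, from mm9, with the 48 bases covered by a full read in capitals and 15 bases on each side in lower case.
*Ep400*, chr5:111121119-111121196, minus strand: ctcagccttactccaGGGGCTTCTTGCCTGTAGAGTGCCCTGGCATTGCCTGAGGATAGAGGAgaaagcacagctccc
*Dst*, chr1:34221935-34222012, plus strand: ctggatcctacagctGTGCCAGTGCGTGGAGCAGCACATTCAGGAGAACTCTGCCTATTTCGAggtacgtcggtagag
*Plec*, chr15:76003563-76003640, minus strand: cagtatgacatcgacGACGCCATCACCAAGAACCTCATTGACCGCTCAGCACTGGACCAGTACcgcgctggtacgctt
*Son*, chr16:91655437-91655514, plus strand: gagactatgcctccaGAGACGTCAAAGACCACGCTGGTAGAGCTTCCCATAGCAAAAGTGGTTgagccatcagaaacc
*Dync1h1*, chr12:111864151-111864228, plus strand: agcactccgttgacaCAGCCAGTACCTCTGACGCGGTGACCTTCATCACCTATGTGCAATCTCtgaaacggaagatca

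The stack in *Ep400*, a subunit of the TIP60 chromatin remodelling complex, held 433 reads in ESCs and 210 in NPCs, or 37.7% of all reads of the gene. It does not lie in the transcript with the longest coding sequence. It lies at the edge of an exon of an *Ep400* transcript annotated as a retained intron (chr5:111120638-111121186), inside the H/ACA small nucleolar RNA gene *SNORA49* (chr5:111121068-111121200, the same strand), which had 614 reads in ESCs and 385 in NPCs. Outside *SNORA49* the gene kept 243 reads in ESCs and 463 in NPCs, so the log2 ratio of NPC to ESC was 0.88 without the snoRNA and -0.06 with it. The other 4 stacks lay in coding exons and were small beside their genes, with 60 and 62 reads in *Dst*, 50 and 66 in *Plec*, 43 and 70 in *Son* and 56 and 53 in *Dync1h1* for ESCs and NPCs. These 4 stacks made up 2.56 to 7.84% of the reads of their genes.

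Members had 54632 exon reads in ESCs from 35474 distinct start positions and 84835 in NPCs from 50152, which was 1.28% and 1.93% of the libraries. Of the 271 members, 9 had no read in either library, 31 had 1 to 9 reads in both together, 231 had at least 10 and 168 at least 100. The 9 without a read included the ciliary motor gene *Dnahc9* and *Sspo*, which encodes a secretion of the subcommissural organ. A count of 0 allows up to 3 reads.

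Summed over members, the reads were spread almost evenly from 5′ to 3′ along the merged exons. The 5′ side of the merged exons held 27809 reads and the 3′ side 26823 in ESCs, a 5′ share of 50.9% (50.5 to 51.3%, Clopper-Pearson). In NPCs the sides held 42612 and 42223 reads, a 5′ share of 50.2% (49.9 to 50.6%). Over all autosomal protein-coding genes the same shares were 48.8% and 47.6%. The evenness depended on the gene model. Along the transcript with the longest coding sequence the 5′ share of the members was 55.9% in ESCs and 56.2% in NPCs. Over the members with a coding transcript of 13000 nt or more it was 55.7% and 54.5%. The shares over all genes above are on merged exons only. The share along the transcript is thus not shown to be particular to the members.

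By bins of the merged exons, the ESC share ran from 7.99% in bin 10 to 11.5% in bin 6, and the NPC share from 8.93% in bin 10 to 11.1% in bin 6. The excess in bin 6 included the *Ep400* stack, and without *Ep400* the 5′ share in ESCs was 51.5%. Both ends differed between the libraries. The first bin held 10.8% of the ESC reads (10.52 to 11.04%) and 9.63% of the NPC reads (9.43 to 9.83%), while the last bin held 7.99% (7.76 to 8.22%) and 8.93% (8.74 to 9.13%). Over all autosomal protein-coding genes both ends differed in the same directions, so this was not particular to the members. There the first bin held 6.45% in ESCs and 5.50% in NPCs, and the last bin 5.81% and 7.23%. The share of positions whose 48 bases occur once in the genome was 97.7 to 99.3% in every bin.

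**Figure D1:**
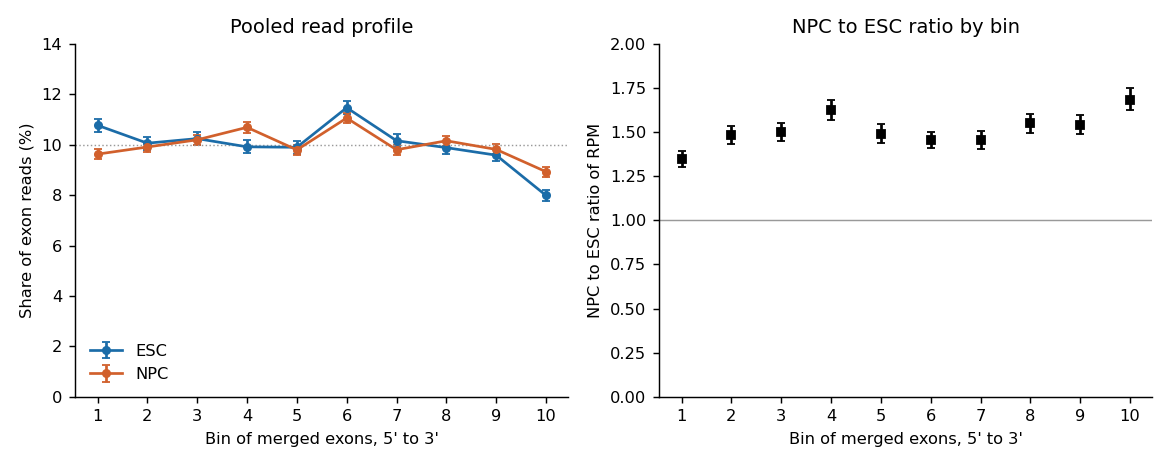
Left, share of all exon reads of the 271 members in each bin of the merged exons, from 5′ to 3′, for the ESC and NPC libraries, with 95% Clopper-Pearson intervals; the dotted line marks 10%. Right, NPC to ESC ratio of RPM in each bin, with conditional binomial 95% intervals; the ratio is lowest in bin 1 at 1.35 and highest in bin 10 at 1.69.

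The NPC to ESC ratio was above 1 in every bin. It was 1.35 (1.30 to 1.39) in bin 1, between 1.45 and 1.63 in bins 2 to 9, and 1.69 (1.62 to 1.75) in bin 10. Set against each other, the sides gave a log2 of the NPC over the ESC 5′ to 3′ ratio of -0.04 (-0.07 to -0.01). Within the coding sequence alone its sign was opposite, 0.13, with 5′ shares of 51.0% (50.5 to 51.5%) in ESCs and 53.2% (52.8 to 53.6%) in NPCs.

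Single members were far less even than their sum. For the counts and medians below, a log2 ratio of 5′ side to 3′ side reads, with 1 read added to each, was taken where a library had at least 20 reads. In ESCs, 35 of 188 members had over 2-fold more reads in the 5′ side, or 18.6%, against 18.9% of all genes, and 36 had over 2-fold more in the 3′ side, or 19.1%, against 19% of all genes. In NPCs, 29 of 196 members had over 2-fold more reads in the 5′ side, or 14.8%, against 16.4% of all genes, and 50 had over 2-fold more in the 3′ side, or 25.5%, against 22.1% of all genes. These shares lie close to those of all genes. The median log2 5′ to 3′ ratio of the members was 0.14 (-0.12 to 0.29) in ESCs and -0.05 (-0.31 to 0.20) in NPCs, against 0.03 and -0.12 over all genes.

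The lean of a member was mostly the same in both libraries. Of the 179 members with at least 20 reads in each, 23 leaned over 2-fold to the 5′ side in both libraries, 29 leaned over 2-fold to the 3′ side in both, and 1 (*Syne1*) leaned to opposite ends. Across these members Pearson's r between the log2 ratios of ESCs and NPCs was 0.84, a description over genes that share their exon models in both libraries. No such counts or r over all genes are given here, so the likeness is not shown to be particular to the members.

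**Figure D2:**
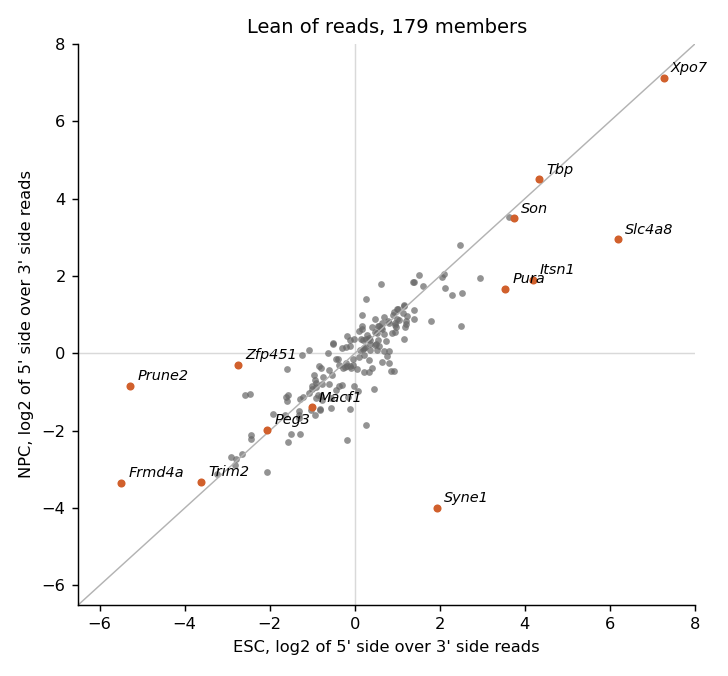
Log2 of 5′ side over 3′ side reads in ESCs (x axis) and NPCs (y axis) for the 179 members with at least 20 reads in each library, 1 point per gene; the diagonal marks equal values. Most points lie along the diagonal, *Xpo7* lies at the 5′ end in both libraries, and *Syne1* lies far below the diagonal, at 1.94 in ESCs and -3.98 in NPCs.

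The strongest 5′ lean, with both libraries summed, belonged to *Xpo7*, *Slc4a8*, *Tbp*, *Cdk5rap2* and *Son*, and all but *Son* have more untranslated than coding sequence in the transcript with the longest coding sequence. *Xpo7*, which encodes an exportin, has a coding sequence of 3264 nt in a transcript of 15121 nt. Its bins 1 to 4 held 131, 75, 88 and 12 reads in ESCs and 236, 124, 157 and 41 in NPCs, while bins 5 to 10 together held 1 read in ESCs and 3 in NPCs. The log2 5′ to 3′ ratio was 7.26 in ESCs and 7.13 in NPCs. *Tbp*, the TATA-binding protein, has 948 coding nt before 11599 nt of annotated 3′ untranslated region (UTR), and its first 2 bins held 81 and 56 of 147 ESC reads and 64 and 91 of 163 NPC reads. Bases shared with other genes made up 19.3% of the exons of *Tbp*.

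*Slc4a8*, a sodium-coupled bicarbonate transporter, had 28 of its 72 ESC reads in bin 2 and none in bins 6 to 10. *Cdk5rap2*, a centrosomal scaffold, had 101 of 277 ESC reads and 165 of 409 NPC reads in bin 5 and 4 and 8 in bin 6. In *Cdk5rap2*, 127 ESC reads and 193 NPC reads lay in 490 nt that belong only to a short transcript of 711 nt (chr4:69910043-69915770), and its transcript with the longest coding sequence held 146 and 216 reads. The start position of *Cdk5rap2* with the most reads lies over the pseudogene *Gm11226*, in sequence found more than once in the genome. With bases shared with other genes left out, the log2 5′ to 3′ ratio of *Cdk5rap2* over both libraries was 2.69 in place of 3.58. *Son*, a splicing cofactor of nuclear speckles, had 224, 187, 168, 141 and 69 ESC reads in bins 1 to 5 and 5 to 26 in each later bin. In NPCs it had 512, 463, 539, 378 and 129 reads in bins 1 to 5 and 23 to 67 after them, and its 5′ share was 93.2% (91.2 to 94.8%) in ESCs and 91.9% (90.7 to 93.0%) in NPCs. In *Son* bins 6 to 9 belong mainly to other transcripts, since the transcript with the longest coding sequence covers 22.5% of bin 6 and none of bins 8 and 9.

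The strongest 3′ lean belonged to *Trim2*, *Frmd4a*, *Kalrn*, *Prune2* and *Nav2*. *Trim2*, a ubiquitin ligase of neurons, had 0 reads in bins 1 and 2 of both libraries and 34, 14 and 21 ESC reads and 30, 15 and 20 NPC reads in bins 8 to 10. Its transcript with the longest coding sequence covers none of bin 1 and 9.47% of bin 2. *Kalrn*, a guanine exchange factor with many transcripts, had 49 of 61 ESC reads and 63 of 75 NPC reads in bins 7 and 8. *Nav2*, a neuron navigator, had 23, 27 and 27 ESC reads and 20, 40 and 24 NPC reads in bins 6 to 8, and at most 6 reads in any of bins 1 to 5. The *Nav2* transcript with the longest coding sequence covers 25.2% of bin 2 and none of bin 3, but 80.4% of bin 4. *Frmd4a*, a scaffold of epithelial polarity, had none of its 44 ESC reads and 32 of its 365 NPC reads in the 5′ side. The *Frmd4a* transcript with the longest coding sequence covers none of bins 1, 2 and 4, 38.6% of bin 3 and 36.5% of bin 5. *Prune2* is described with the genes whose place of reads differed.

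Among the members just above the length threshold, *Armc9* (13006 nt) had 34 ESC and 72 NPC reads, *2410089E03Rik* (13017 nt) had 167 and 242, and *Cdk5rap2* (13018 nt) had 277 and 409. Just below it, *Ralgapb* (12992 nt) had 466 and 492, *Stxbp5* (12975 nt) had 21 and 58, and *Zdhhc21* (12972 nt) had 149 and 233. The ESC log2 5′ to 3′ ratios on the longer side were 1.38, 0.64 and 3.62 and on the shorter side -0.74, 1.19 and -0.76.

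Read density differed between the annotated parts of the mRNA. Repeat bases stayed in these lengths though the authors had removed reads in repeats, and annotated UTR without reads was counted too. The part of either in the differences was not tested. In the transcript with the longest coding sequence, members had 19.5 reads per kb of coding sequence in ESCs and 10.5 per kb of 3′ UTR, and in NPCs 29.9 and 17.9. The 3′ UTR density was 0.539 of the coding density in ESCs and 0.598 in NPCs, against 0.565 and 0.752 over all autosomal protein-coding genes. The 5′ UTR of the members held 7.78 reads per kb in ESCs and 10.5 in NPCs. Among members with at least 20 reads and 500 nt of each part, 68 of 147 had a 3′ UTR over 2-fold below the coding sequence in ESCs, or 46.3%, against 36.4% of all genes, and 59 of 159 in NPCs, or 37.1%, against 29.4% of all genes.

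Within the coding sequence the members were close to even, and within the 3′ UTR reads were fewer toward the end. The 5′ side of the coding sequence held 51.0% of the coding reads in ESCs and 53.2% in NPCs, where all genes had 47.83% and 46.95%. Of the members with at least 20 coding reads, 22 of 167 leaned over 2-fold to the 5′ side in ESCs, or 13.2%, against 11% of all genes, and 11 leaned to the 3′ side, or 6.59%, against 16.5% of all genes. In NPCs 19 of 179 leaned to the 5′ side, or 10.6%, against 10.3% of all genes, and 12 to the 3′ side, or 6.70%, against 18.3% of all genes. The shares leaning to the 5′ side lie near those of all genes, and the shares leaning to the 3′ side lie below them. The 5′ side of the 3′ UTR held 57.7% of its reads (56.6 to 58.7%) in ESCs and 57.8% (57.0 to 58.6%) in NPCs, against 63.6% and 62.5% over all genes. The first bin of the 3′ UTR held 14.8% and 15.1% of the UTR reads and the last bin 5.80% and 5.18%.

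Members were grouped by the coding share of the transcript with the longest coding sequence. The limits given above for repeats and for annotated UTR without reads hold here too. Along that transcript, the median log2 5′ to 3′ ratio in ESCs was 0.14 (-0.11 to 0.25) over 78 members with 80% or more of coding sequence, 0.54 (0.15 to 0.94) over 55 members with 50 to under 80%, and 1.11 (0.57 to 1.71) over 48 members with under 50%. In NPCs the medians were 0.15 (0.06 to 0.31), 0.26 (-0.13 to 0.85) and 1.15 (0.45 to 1.30). Among the 48 members with the least coding sequence, 26 leaned over 2-fold to the 5′ side in ESCs and 0 to the 3′ side, where of the 3799 autosomal protein-coding genes with as small a coding share 34% and 7.29% did so. In NPCs 27 of 52 leaned to the 5′ side and 0 to the 3′ side, against 29.7% and 10.7% of 4089 such genes. On merged exons the ESC medians of the 3 groups were -0.02, 0.20 and 0.27, so the medians lay closer together there.

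**Figure D3:**
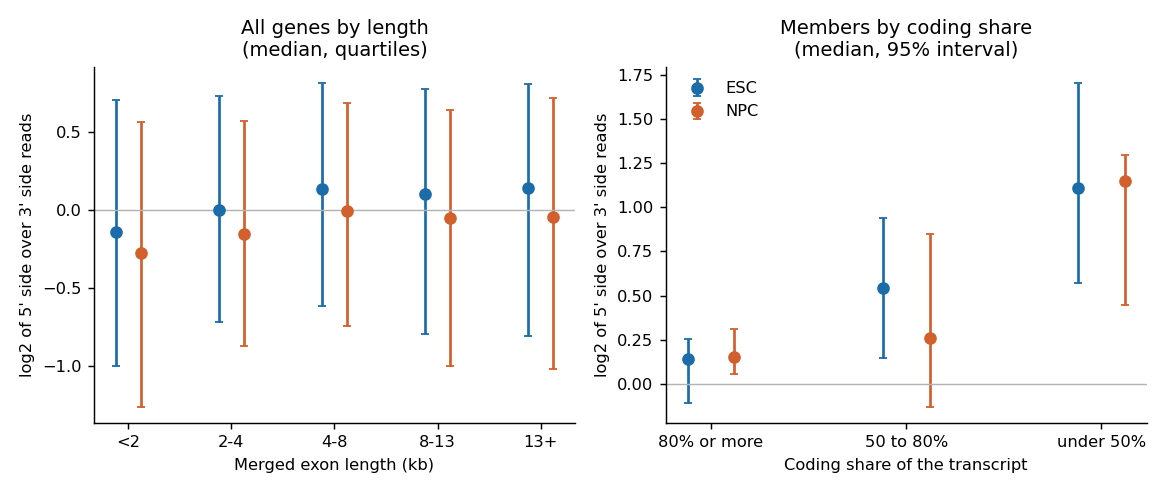
Left, median log2 of 5′ side over 3′ side reads for all autosomal protein-coding genes with at least 20 reads, by merged exon length, with quartiles as bars; members are the class of 13 kb and more. Right, the same median along the transcript with the longest coding sequence for members grouped by the coding share of that transcript, with order-statistic 95% intervals; the group under 50% lies highest, at 1.11 in ESCs and 1.15 in NPCs.

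The median log2 5′ to 3′ ratio in ESCs was -0.15 for genes under 2000 nt, 0 for 2000 to 4000 nt, 0.13 for 4000 to 8000 nt, 0.10 for 8000 to 13000 nt and 0.14 for the members. In NPCs it was -0.28, -0.16, -0.01, -0.05 and -0.05. The interval of the members, -0.12 to 0.29 in ESCs, covered the medians of the 3 other classes above 2000 nt.

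The genes with the most reads were followed bin by bin. *Ahnak*, a giant scaffold under the plasma membrane with nearly all of its coding sequence in 1 exon, had 1242 reads in ESCs (15.5 RPKM, which is RPM per kb of merged exons) and 4724 in NPCs (57.1 RPKM). Its bins 2 and 10 held 180 and 54 reads in ESCs and 686 and 234 in NPCs, with a 5′ share of 59.7% (57.0 to 62.5%) and 62.2% (60.8 to 63.6%). The profile of *Ahnak* sloped down in both libraries alike.

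*Dync1h1*, the heavy chain of cytoplasmic dynein, had 1826 reads in ESCs and 2435 in NPCs, with 5′ shares of 58.1% and 59.5%. *Nsd1*, a histone H3 lysine methyltransferase, had 1812 and 2743 reads and 5′ shares of 58.2% and 64.9%. *Birc6*, a giant ubiquitin-conjugating inhibitor of apoptosis, had 1186 and 1984 reads and 5′ shares of 52.9% and 60.8%. Each of the 3 leaned to the 5′ side in both libraries by less than 2-fold.

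*Macf1*, which links actin to microtubules, leaned the other way. It had 2202 reads in ESCs and 2594 in NPCs, with 44 and 18 in bin 1 and 411 and 595 in bin 9, and its 5′ share was 33.1% (31.1 to 35.1%) and 27.6% (25.9 to 29.4%). The transcript with the longest coding sequence covers 26.7% of bin 1. *Brwd1*, a bromodomain protein, had 1414 and 1833 reads and 5′ shares of 54.1% and 53.0%, close to even.

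*Mdn1*, an ATPase of ribosome assembly, with 508 ESC reads and 650 NPC reads, was nearly even, with 5′ shares of 56.1% (51.7 to 60.5%) and 54.0% (50.1 to 57.9%). *Utrn*, the utrophin relative of dystrophin, had 547 and 807 reads, and its 5′ share was 41.1% (37.0 to 45.4%) in ESCs and 54.3% (50.8 to 57.8%) in NPCs. In *Utrn* the NPC reads were more numerous than the ESC reads in bins 1 to 8, at 80 against 38 in bin 1, and close to the ESC reads in bins 9 and 10, at 71 against 66 and 63 against 69.

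**Figure D4:**
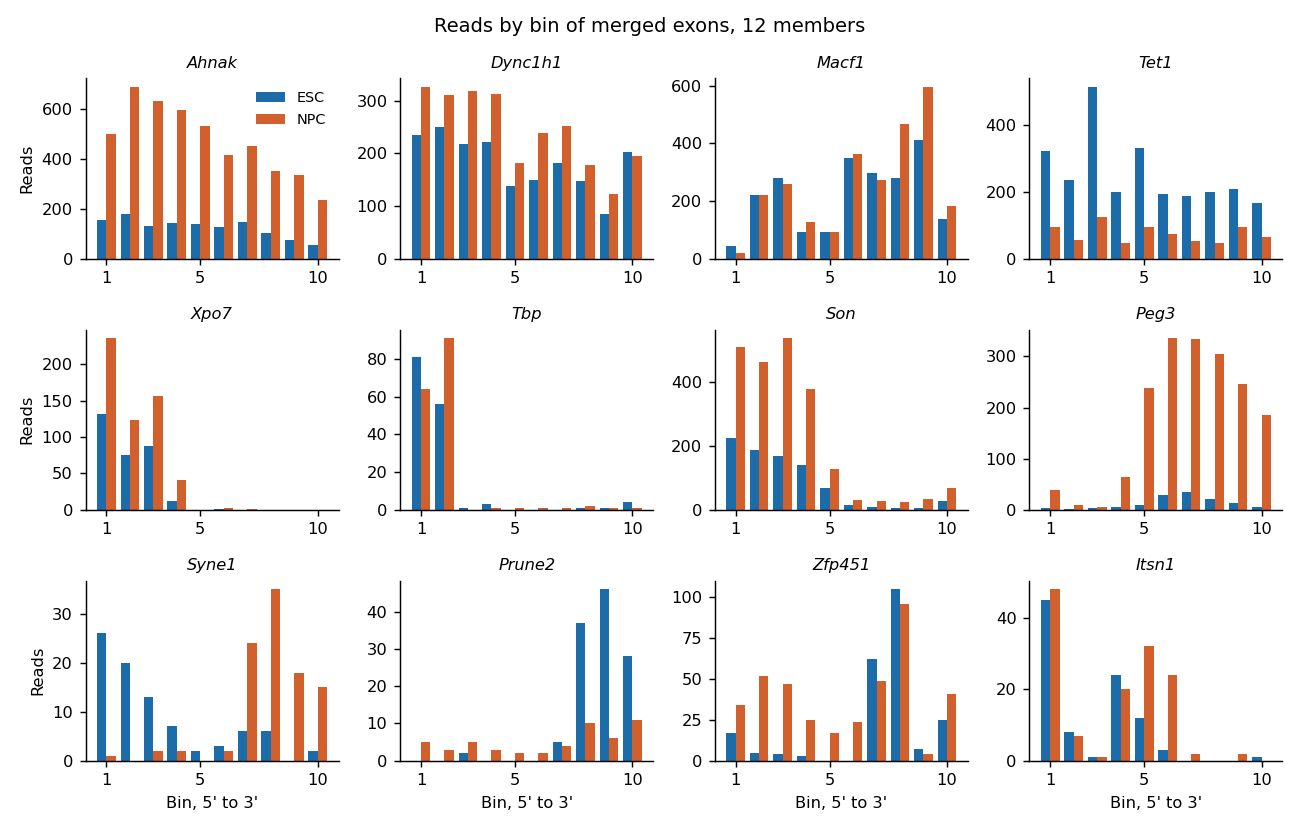
Reads in each bin of the merged exons, from 5′ to 3′, for 12 members in the ESC and NPC libraries, with a scale for each gene. The top row shows genes with many reads, the middle row genes with a lean in both libraries (*Xpo7*, *Tbp*, *Son* to 5′, *Peg3* to 3′), and the bottom row genes whose lean changed, such as *Syne1* with 26 ESC reads in bin 1 and 35 NPC reads in bin 8.

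The place of the reads differed between the libraries in few members. Of the 179 members with at least 20 reads in each library, 10 had a 5′ to 3′ ratio over 2-fold higher in NPCs, or 5.59%, against 4.03% of all genes, and 14 had one over 2-fold lower, or 7.82%, against 9.61% of all genes. The median change over the members was -0.07 (-0.18 to 0.04) on the log2 scale, against -0.14 over all genes.

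*Syne1*, which encodes the nuclear envelope linker nesprin-1, had similar numbers of reads in both libraries and the largest change among the members named here. It had 85 reads in ESCs and 99 in NPCs, a ratio of 1.13 (0.838 to 1.53). In ESCs its bins held 26, 20, 13, 7, 2, 3, 6, 6, 0 and 2 reads, and in NPCs 1, 0, 2, 2, 0, 2, 24, 35, 18 and 15. The log2 5′ to 3′ ratio was 1.94 in ESCs and -3.98 in NPCs, a change of -5.92 (-7.29 to -4.56), and the reads came from nearly as many start positions (24 of 26 in bin 1 in ESCs, and 30 of 35 in bin 8 in NPCs).

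The annotation gives *Syne1* (chr10:4795849-5326338, plus strand) 4 coding transcripts, and the reads of the libraries lay mostly on different parts. The exons of the transcript that ends early, at chr10:4795849-5009592, held 51 reads in ESCs and 1 in NPCs. The exons of a transcript that starts late, at chr10:5151834-5326338, held 13 reads in ESCs and 92 in NPCs. The full-length transcript of 28204 nt, which shares exons with both, held 68 and 96. As background, the 5′ end of the full-length *Syne1* mRNA codes for the actin-binding end of the protein and the 3′ end for the part in the nuclear membrane. Which transcripts the reads came from was not tested.

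*Prune2*, which encodes a protein with a lipid-binding BCH domain, changed in the opposite direction. It had 118 reads in ESCs and 51 in NPCs. In ESCs its bins held 0, 0, 2, 0, 0, 0, 5, 37, 46 and 28 reads, and in NPCs 5, 3, 5, 3, 2, 2, 4, 10, 6 and 11. The change of the log2 5′ to 3′ ratio was 4.45 (2.72 to 6.18). A short transcript of 2126 nt at chr19:17211254-17296299 held 74 ESC reads and 15 NPC reads, while the 2398-nt transcript at chr19:17072381-17194024, which lies in the 5′ part, held 1 and 10.

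*Zfp451*, a zinc finger SUMO ligase, had 228 reads in ESCs and 389 in NPCs, with a change of 2.45 (1.83 to 3.07). Bins 2 to 6 held 5, 4, 3, 0 and 0 reads in ESCs and 52, 47, 25, 17 and 24 in NPCs, while bins 7 and 8 held 62 and 105 in ESCs and 49 and 96 in NPCs. The bases of 1 coding transcript of 11875 nt, chr1:33848981-33871414, that no other transcript has, 10661 nt in all, held 20 ESC reads and 180 NPC reads. Along the transcript with the longest coding sequence, which lacks these bases, the change in *Zfp451* was -0.28, opposite in sign to the change on merged exons.

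*Frmd4a* had a change of 2.15 and *Camk2d*, a calcium and calmodulin-dependent kinase, one of 1.59 (0.13 to 3.05). *Camk2d* had 19 ESC reads, and 62 of its 159 NPC reads lay in bin 5. The interval of *Frmd4a*, -0.25 to 4.55, covered 0. On the other side, *Slc4a8* had a change of -3.24 (-5.97 to -0.50) that rested on 3 NPC reads in bin 10. *Itsn1*, an endocytic scaffold with 29 transcripts, had a change of -2.28 (-3.65 to -0.90), with 3 reads in bin 6 in ESCs and 24 in NPCs. *Pura*, a single-stranded nucleic acid binding protein with 963 coding nt and 13397 nt of 3′ UTR, had one of -1.87 (-3.05 to -0.70), and its ESC reads were mostly in bins 1 to 4 (24, 19, 36 and 22).

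*Ep400* had a change of 1.51 (1.16 to 1.85) on all its merged exons. With the bases shared with other genes left out, which removes *SNORA49*, it had 122 5′ side and 121 3′ side reads in ESCs and 272 and 192 in NPCs, log2 ratios of 0.01 and 0.50 in place of -2.58 and -1.07.

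The level of the members was higher in the NPC library than in the ESC library. The pooled ratio of RPM was 1.51 (1.49 to 1.52), and the median log2 ratio over the 231 members with at least 10 reads was 0.56 (0.48 to 0.74), against 0.39 over the 12277 autosomal protein-coding genes with at least 10 reads. Relative to that median the members were 0.17 higher. This did not hold for the members with a single coding transcript of 13000 nt or more. Their median log2 ratio was 0.31, below that of all genes, and their pooled ratio was 1.30. Of the 231 members, 83 were over 2-fold higher in NPCs, or 35.9%, against 25.8% of all genes, and 20 were over 2-fold lower, or 8.66%, against 11.9% of all genes. The class of 8000 to 13000 nt had a median of 0.59 and the class under 2000 nt 0.07, so the members stood near the next shorter class. Counting each start position once lowered the pooled ratio to 1.17, and scaling by the median gene lowered it to 1.15.

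**Figure D5:**
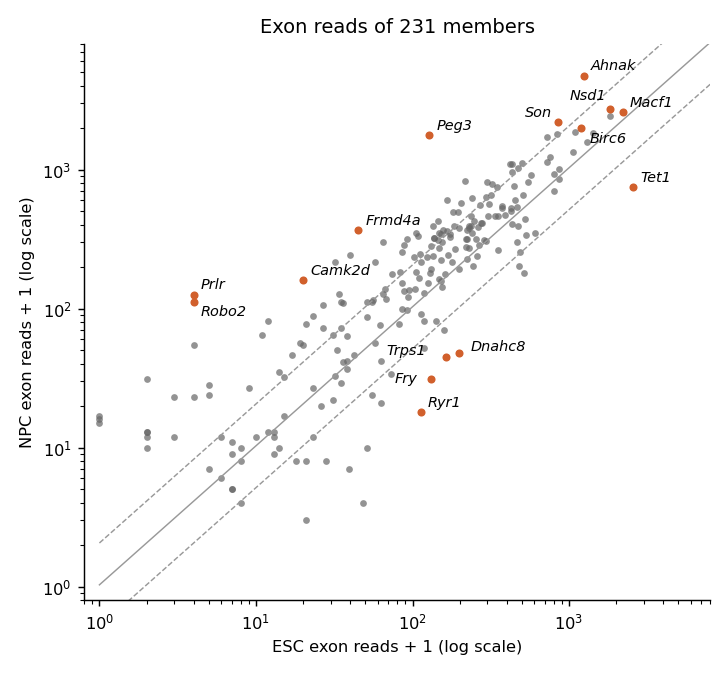
Exon reads plus 1 in ESCs (x axis) and NPCs (y axis), both on log scales, for the 231 members with at least 10 reads in both libraries together. The solid line marks equal RPM and the dashed lines a 2-fold difference; *Peg3*, *Prlr*, *Robo2* and *Frmd4a* lie above the upper dashed line and *Tet1*, *Ryr1* and *Dnahc8* below the lower one.

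Of the 5 members with the highest NPC to ESC ratios, *Prlr*, *Robo2* and *Camk2d* had fewer than 20 ESC reads. *Prlr*, the prolactin receptor, had 3 reads in ESCs and 125 in NPCs, a ratio of 40.5 (13.5 to 199). *Robo2*, an axon guidance receptor for Slit, had 3 and 111, a ratio of 35.9 (11.98 to 177). *Peg3*, a paternally expressed imprinted zinc finger gene, had 127 and 1764 reads, a ratio of 13.5 (11.3 to 16.3). The ratios of *Camk2d*, 8.12 (5.03 to 13.9) with 19 and 159 reads, and of *Frmd4a*, 8.05 (5.88 to 11.3) with 44 and 365 reads, followed. The pooled ratio of the extraembryonic endoderm markers was 16.7 in the same library, and their part in these values was not tested.

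The *Peg3* reads lay mostly in the later bins in both libraries. In NPCs its bins 5 to 10 held 238, 336, 335, 304, 247 and 185 reads and bins 1 to 4 held 39, 9, 6 and 65. In ESCs bins 5 to 10 held 9, 28, 35, 21, 13 and 6. Bins 2 and 3 hold no base of its transcript with the longest coding sequence, and along that transcript *Peg3* had a log2 5′ to 3′ ratio of 0.23 over both libraries, where merged exons gave -1.98.

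The 5 members with the lowest ratios were *Ryr1*, *Fry*, *Dnahc8*, *Trps1* and *Tet1*. *Tet1*, which oxidises 5-methylcytosine, had 2556 reads in ESCs (40.7 RPKM) and 743 in NPCs (11.5 RPKM), a ratio of 0.282 (0.260 to 0.306). *Ryr1*, the calcium release channel of skeletal muscle, had 112 and 17 reads, a ratio of 0.147 (0.0829 to 0.247). *Fry*, a furry homologue, had 130 and 30, a ratio of 0.224 (0.145 to 0.335).

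*Dnahc8*, an axonemal dynein heavy chain, had 198 reads in ESCs and 47 in NPCs, a ratio of 0.230 (0.164 to 0.318), and its ESC reads covered all bins, from 28 in bin 2 to 13 in bin 10. *Trps1*, a GATA-type zinc finger gene, had 162 and 44, a ratio of 0.264 (0.184 to 0.370). *Tet1* had more ESC than NPC reads in all bins, with 512 and 124 in bin 3 and 187 and 52 in bin 7. In *Tet1* the level differed along the whole mRNA, while in *Syne1* the place differed and the interval of the level ratio covered 1.

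The members were also read by role, from lists of 10 roles. Of all genes with at least 10 reads, 25.8% were over 2-fold higher in NPCs and 11.9% over 2-fold lower. The lists are short, so their counts of genes over 2-fold higher or lower describe the genes named and not the roles. The 14 cytoskeletal linkers and giant muscle proteins had 13 members with at least 10 reads, of which 4 were over 2-fold higher in NPCs and 0 over 2-fold lower, with a median log2 ratio of 0.52. Besides *Ahnak*, these were *Ank2*, an ankyrin, with 26 and 105 reads, *Akap9*, a centrosomal anchor of protein kinase A, with 108 and 330, and *Ttn*, the sarcomere spring titin, with 16 and 45. Titin, with 116828 nt the longest of all, was read at 0.032 RPKM in ESCs and 0.088 RPKM in NPCs. *Plec*, which cross-links intermediate filaments, had 567 and 912 reads, and *Dst*, a linker of intermediate filaments and microtubules, had 857 and 1006.

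The 8 giant ubiquitin ligases and related genes all had at least 10 reads, with 1 over 2-fold higher, *Mycbp2* with 180 and 493 reads, and 0 over 2-fold lower. None of them leaned over 2-fold to either end in either library. *Ubr4*, which recognises N-degrons, had 726 and 1138 reads, and *Rnf213*, a giant AAA ATPase ligase, had 529 and 337 and was the member of the list with the lowest log2 ratio, -0.69.

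The 16 chromatin and transcription genes all had at least 10 reads, with 5 over 2-fold higher in NPCs and 2 over 2-fold lower. The 5 were the H3K4 methyltransferase gene *Mll2* (151 and 343 reads), the homeobox genes *Zfhx3* (39 and 243) and *Zfhx4* (10 and 64), *Trrap*, a scaffold of acetyltransferase complexes (501 and 1107), and *Bptf*, a subunit of the NURF remodeller (292 and 629). The 2 were *Tet1* and the remodeller gene *Chd9* (512 and 178). The pooled ratio of this list was 1.06, and its median log2 ratio was 0.51.

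Of the 10 motors, 8 had at least 10 reads, 1 was over 2-fold higher and 3 over 2-fold lower. *Dync2h1*, the heavy chain of intraflagellar transport dynein, had 73 and 175 reads. The 3 lower ones were axonemal dyneins, *Dnahc8*, *Dnahc2* with 47 and 3 reads, and *Dnahc17* with 7 and 3. Other axonemal dyneins with at least 10 reads did not all go that way. Their coding reads were 5 and 11 in *Dnahc11*, 9 and 11 in *Dnahc6*, and 12 and 8 in *Dnahc10*. *Dync1h1* held most of the reads of this list.

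The 12 large receptors and cadherins had 8 members with at least 10 reads, of which 2 were over 2-fold higher and 3 over 2-fold lower. *Notch1*, the receptor of Delta and Jagged ligands, had 481 and 203 reads, a log2 ratio of -1.28. *Lrp1*, an endocytic receptor, had 157 and 69, and *Fat2*, a protocadherin, 27 and 7. *Fat1* had the most reads of the list, 1296 and 1580. The 2 higher ones were *Fat3* with 0 and 15 reads and *Ptprb*, a phosphatase receptor of endothelium, with 3 and 22.

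The 13 ion channels and synaptic scaffolds had 10 members with at least 10 reads, 2 over 2-fold higher and 2 over 2-fold lower, with a median log2 ratio of -0.47. *Ryr2*, the cardiac calcium release channel, had 35 and 108 reads, opposite to *Ryr1*, and *Ryr3* had 1 and 9. *Nrxn2*, a presynaptic adhesion receptor, had 20 and 2. *Pkd1*, the polycystin gene, had 222 and 227, a ratio of 0.993 (0.821 to 1.20).

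The 8 matrix genes had 5 members with at least 10 reads, 2 over 2-fold higher and 1 over 2-fold lower. *Vcan*, a large proteoglycan, had 130 and 280 reads, *Fras1*, of the basement membrane under epithelia, had 14 and 31, and *Hmcn2* had 20 and 7. Of the 4 genes of membrane traffic, *Wdfy3*, an autophagy scaffold, had 85 and 254 reads, *Vps13b* 166 and 359, *Vps13d* 350 and 262, and *Dock3*, a guanine exchange factor of neurons, 17 and 7. *Vps13d* leaned to the 5′ side in both libraries, by 2.09 and 2.06 on the log2 scale. *Smg1*, the kinase of nonsense-mediated decay, had 1055 and 1333 reads and was even along its length, at -0.05 and -0.15.

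The 184 members in no list had 157 with at least 10 reads, of which 64 were over 2-fold higher and 8 over 2-fold lower in NPCs, with a median log2 ratio of 0.74. Over all genes the shares higher and lower were 25.8% and 11.9%. In the class of 8000 to 13000 nt they were 32.4% and 9.74%.

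Reads in introns of the members gave another profile. Bases in no exon of any gene, 68913283 nt in all, held 21874 reads in ESCs and 27898 in NPCs, or 0.317 and 0.405 reads per kb. The exon density, 12.1 and 18.8 reads per kb, was 38.2 and 46.5 times higher. The authors had removed reads in repeats, while repeat bases stayed in both lengths. The part of repeats in this difference was not tested. The 5′ side of the introns held 44.6% of the intron reads (43.9 to 45.3%) in ESCs and 43.7% (43.1 to 44.3%) in NPCs. Summed over members, intron reads were thus somewhat more frequent toward the 3′ end, while reads on merged exons were not. Single genes weighed on this sum in both directions. The 5′ side held 173 of 653 ESC and 164 of 1225 NPC intron reads in *Macf1*, and 158 of 848 and 328 of 891 in *Etl4*. In *Lpp* it held 389 of 467 and 574 of 769. The share without *Macf1* and *Etl4* was not computed.

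By bins, the outermost parts of the introns were highest, with 14.2% in bin 1 and 15.4% in bin 10 of the ESC reads and 14.9% and 15.1% of the NPC reads, and bin 2 was lowest with 6.66% and 6.19%. The NPC to ESC ratio of intron reads was 1.24 (1.22 to 1.26), below the exon ratio of 1.51. *Trrap* had the most intron reads, 578 in ESCs and 1615 in NPCs, from 185 and 330 start positions. Without *Trrap* the 5′ share of intron reads was 43.6% in ESCs and 41.0% in NPCs.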

How the data were processed

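The authors depleted polyadenylated transcripts with 3 oligo(dT) captures and ribosomal ones with 1 kit step, cut what remained with RNase III and made libraries from 2 µg of RNA (150 to 250 bp, 15 PCR cycles) for SOLiD sequencing. They aligned reads to mm9 with Bowtie (version not given in the sources used here), did not require a unique placement, and removed mitochondrial, ribosomal and repeat reads. The deposited files hold 1 line per placed read with position, strand and 48 nt of sequence, not normalized. Of the members' reads, 96.2% in ESCs and 95.5% in NPCs had a sequence found once in the genome.

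Reads overlapping the merged exons of GENCODE M1 (37310 genes) on the gene strand were counted and placed by the middle of the overlap. Log2 ratios add 1 read to each count. Shares have Clopper-Pearson and level ratios conditional binomial 95% intervals, changes of the 5′ to 3′ ratio have log odds intervals and medians order-statistic ones. Reads were counted with Python 3.11.15, NumPy 2.4.6 and SciPy 1.17.1, and the counting was tested on simulated data. The genes named are, among members with at least 100 reads in both libraries together, the 8 with the most reads, the 5 highest and 5 lowest in the NPC to ESC and in the 5′ to 3′ ratio, and the 4 with the largest change of the 5′ to 3′ ratio in each direction, besides *Mdn1*, *Utrn*, the 3 genes on each side of the length threshold and the role lists. Other genes named, such as those of the read stacks, were chosen after their values were seen. The members and all lists were chosen with earlier results of these data known.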

Additional observations from a re-analysis of the deposited data

Results flagged for a closer look

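Reads on the strand opposite to the members were not part of any comparison above. Over exon bases that no other gene shares, 311 reads lay antisense in ESCs and 268 in NPCs, beside 53377 and 83566 on the gene strand, so the antisense share was 0.579% and 0.320%. There is no control sample, so antisense RNA and reads assigned to the wrong strand cannot be told apart here. The members with the most antisense reads were *Ttn*, with 19 in ESCs and 10 in NPCs beside 16 and 44 on the gene strand, *Stard9* with 13 and 16, *Son* with 17 and 11, *Tbp* with 5 and 23 and *Pdzd2* with 19 and 8. They were chosen after their values were seen.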

How the results depend on the processing

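With 1 library per cell type, the values below carry counting error only, and no replicate could be left out. No paired analysis was possible because each cell type has 1 library. An alternative that weighs bins by sequence outside repeats was not run, since the genome at hand does not mark repeats. The settings without *Ep400* and with coding sequence only were chosen after seeing the data. Of the alternatives of summary results, 65 left the value within its error and 54 moved it, and the cause was not tested.

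The share of exon reads on the 5′ side, 50.9% in ESCs and 50.2% in NPCs, was 50.3% and 48.6% with each start position once, 55.9% and 56.2% along the transcript with the longest coding sequence, 53.1% and 50.7% between bins 1 to 3 and 8 to 10, and 55.7% and 54.5% over the 90 members with a coding transcript of 13000 nt. In ESCs it was 51.4% without bases shared with other genes and 51.5% without *Ep400*. In NPCs it was 53.2% in coding sequence, 48.7% with equal weight for members and 49.5% without *Ahnak*. Members leaning to the 5′ side were 54 in each library along the transcript, 22 in ESCs and 19 in NPCs in coding sequence, and 48 in NPCs between the outer bins. Those leaning to the 3′ side were 8 in ESCs and 9 in NPCs along the transcript, 11 and 12 in coding sequence, and 23 and 31 with at least 100 reads. For all genes the transcript was used only where under 50% of it is coding. There 34% in ESCs and 29.7% in NPCs leaned to the 5′ side, and 7.29% and 10.7% to the 3′ side. The counts along the transcript are thus not shown to be particular to the members. The median lean became 0.40 in ESCs and 0.33 in NPCs along the transcript. The pooled change of lean was -0.10 with each start position once, 0.019 along the transcript, 0.13 in coding sequence, -0.14 between the outer bins and -0.13 with equal weights.

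The pooled NPC to ESC ratio was 1.17 with each start position once, 1.40 scaled by reads outside the 10 largest clusters, 1.15 scaled by the median gene, 1.30 over the 90 members and 1.46 without *Ahnak*. The median log2 ratio was 0.26, 0.46, 0.17 and 0.31 under the first 4 of these. Members over 2-fold higher numbered 46 with each start position once, 49 scaled by the median gene and 21 of the 90, and those over 2-fold lower 10 with at least 100 reads and 9 of the 90. The 5′ share of intron reads was 43.8% in ESCs and 41.5% in NPCs with each start position once, 43.6% and 41.0% without *Trrap*, and 43.3% and 42.2% between the outer bins. The 3′ UTR to coding density was 0.567 and 0.644 with each start position once, and 0.633 in NPCs without *Ahnak*.

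Signs turned for single genes. Along the transcript, the log2 5′ to 3′ ratio was 0.022 in *Chd6*, 0.23 in *Chd7*, 0.62 in *Ep400* and 0.23 in *Peg3*, and its change was -0.16 in *Frmd4a* and -0.28 in *Zfp451*. In *Ep400* it was 0.15 with each start position once, 0.33 without shared bases and 0.31 between the outer bins. Between the outer bins the change was -0.14 in *Camk2d*, -0.039 in *Frmd4a* and 3.66 in *Prlr*.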
